A study of Mus musculus with 12 samples.

Results

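The interval described here lies beyond Mycn, on the far side of that gene from a Mycn enhancer used as a 4C-seq viewpoint, and holds Ddx1 and Nbas. 4C-seq joins fragments of fixed chromatin that lie close together, amplifies every fragment joined to 1 chosen site, the viewpoint, and sequences them. The members are the windows of the Mycn enhancer table that run from 13041001 to 13800000 on chromosome 12 (mm10). The rule uses position alone, but it was set with earlier results of these data known. Of 750 positions at a step of 1 kb, 714 were listed as windows of 10 kb, out of 7348 windows in the table and 17305 in the series. The viewpoint window, 12786001 to 12796000, is the one with the highest mean of the table, and the centres of the member windows lie from 255 kb to 1004 kb from it.

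The comparison was of embryonic stem (ES) cells with mouse embryonic fibroblasts (MEFs), with 2 libraries each. The ES cells were of the V6.5 line, kept in 2i medium, and the labels name no transgene for them. The MEFs came from embryos at E13.5 and were grown in DMEM. They were heterozygous for 3 alleles, an Oct4-GFP reporter, the reprogramming cassette OKSM and rtTA3, which drives the cassette when doxycycline is present. No doxycycline is named for these samples. V6.5 is 1 line, and no label says whether the MEF libraries came from different embryos, and a p-value here speaks of library-to-library spread alone, part of which can be technical. 4C-seq carries no expression values, so the cell types could not be checked against marker genes.

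Enhancers can act on genes far away on the same chromosome when the chromatin fibre brings both close together, and contact frequency falls with distance along the fibre. Mycn encodes a MYC-family transcription factor of stem and progenitor cells. Ddx1 encodes a DEAD-box RNA helicase and is the next protein-coding gene, and Nbas encodes a long protein of vesicle transport between the Golgi and the endoplasmic reticulum. Both are known neighbours of MYCN in human tumours in which that locus is amplified.

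Ddx1 and Nbas start close to each other and point away from each other. Ddx1 is read from 13249174 toward lower coordinates, that is toward Mycn, and Nbas from 13269127 toward higher coordinates, so the starts lie 19.953 kb apart, at 458 and 478 kb from the viewpoint. The upstream stretches of 4 genes are printed because they are the ends at which the contact values below were read: those of Ddx1 and Nbas, and those of 2 long noncoding RNA genes, Gm35298 and Gm24208, that lie between Mycn and Ddx1. Each is the 250 bases before the transcription start, 5′ to 3′ on the gene's own strand, from RefSeq on GRCm38.p6, the assembly that mm10 names. The capitals mark GATC, the site cut by DpnII, the first enzyme of this assay, at which a contact can be joined.
Ddx1 (chr12:13249175-13249424, minus strand): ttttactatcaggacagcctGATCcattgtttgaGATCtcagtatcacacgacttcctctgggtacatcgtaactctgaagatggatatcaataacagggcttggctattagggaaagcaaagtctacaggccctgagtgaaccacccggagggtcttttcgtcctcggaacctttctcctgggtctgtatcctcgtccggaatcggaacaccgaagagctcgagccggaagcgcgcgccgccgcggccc
Nbas (chr12:13268877-13269126, plus strand): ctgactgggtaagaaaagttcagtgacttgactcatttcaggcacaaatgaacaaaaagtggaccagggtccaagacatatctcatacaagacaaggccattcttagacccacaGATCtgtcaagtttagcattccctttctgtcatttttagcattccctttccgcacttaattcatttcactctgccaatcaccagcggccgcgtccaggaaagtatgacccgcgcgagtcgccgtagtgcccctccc
Gm35298 (chr12:13102393-13102642, plus strand): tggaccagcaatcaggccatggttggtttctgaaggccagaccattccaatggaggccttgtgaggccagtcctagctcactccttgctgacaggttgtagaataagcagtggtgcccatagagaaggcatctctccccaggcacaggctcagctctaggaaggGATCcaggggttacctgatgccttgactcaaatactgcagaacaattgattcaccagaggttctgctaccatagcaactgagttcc
Gm24208 (chr12:13181181-13181430, minus strand): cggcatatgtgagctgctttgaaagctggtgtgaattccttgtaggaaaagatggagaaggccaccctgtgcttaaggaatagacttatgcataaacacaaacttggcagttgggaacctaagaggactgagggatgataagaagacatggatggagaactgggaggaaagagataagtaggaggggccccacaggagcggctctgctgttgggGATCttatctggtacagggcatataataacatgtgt

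The Ddx1 stretch held 2 DpnII sites and each of the others held 1. Of 27025 RefSeq genes, 42.0% had at least 1 GATC in the same 250 bases. The second enzyme, Csp6I, cuts GTAC, found once each in the Ddx1 and Gm24208 stretches, in 0 copies in the other 2, and in 31.4% of all genes. No match to the E-box CACGTG, the site of MYC-family factors (6.0% of all genes), or to GGGNGTGG, a core of KLF4 sites (15.8% of all genes), was found on either strand of these 4 stretches.

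Values are counts per 1000 of a library's total count, read in windows. The totals were 88038 counts in ES replicate 1, 27290 in ES replicate 2, 16774 in MEF replicate 1 and 59424 in MEF replicate 2, so 1 count is worth 0.0114, 0.0366, 0.0596 and 0.0168 per 1000. A window was tested where at least 2 of the 4 libraries reached 1 per 1000. Of the 714 members, 264 passed and 450 did not. In 171 of the 264 all 4 libraries reached 1, while 5 passed through the ES pair alone and 10 through the MEF pair alone, and these last 15 had to differ. Pairs of values are given in replicate order, 1 before 2. All log2 differences below are ES minus MEF on log2(value + 1), tested with limma over all windows, blocks, loci or promoters of the table, with Benjamini-Hochberg adjustment at 0.05.

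Contact fell from a plateau before and over Ddx1 to low values within Nbas in both cell types. The stretch before Ddx1, with no protein-coding gene, had median values per window of 1.81 and 1.58 in the ES libraries and 2.86 and 2.52 in the MEF libraries. Past the start of Nbas the medians were 0.318 and 0.293 in ES cells, against 0.477 and 0.337 for MEFs. The last window at 2 per 1000 or more ended at 13302000 in ES replicate 1, 13285000 in ES replicate 2, 13282000 in MEF replicate 1 and 13249000, inside Ddx1, in MEF replicate 2. No library exceeded 2.27 in a window centred past the start of Nbas.

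The highest contacts of the interval, the 10 windows with the highest mean of the 4 libraries, joined into 1 stretch from 13206001 to 13244000, which covers the lower-coordinate end and most of the body of Ddx1. Its top window, 13208001 to 13218000, just outside the end of Ddx1, held 5.44 and 4.43 counts per 1000 in the ES pair, against 4.23 and 3.65 in the MEF pair. The ES values were the higher ones, but the difference was within the spread that limma allows (log2 difference 0.26, SE 0.22, adjusted p = 0.381). In both ES libraries this was the highest member window of all. In the MEF libraries the highest lay elsewhere, at 13064001 in replicate 1 (5.25) and at 13175001 in replicate 2 (4.83).

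**Figure D1:**
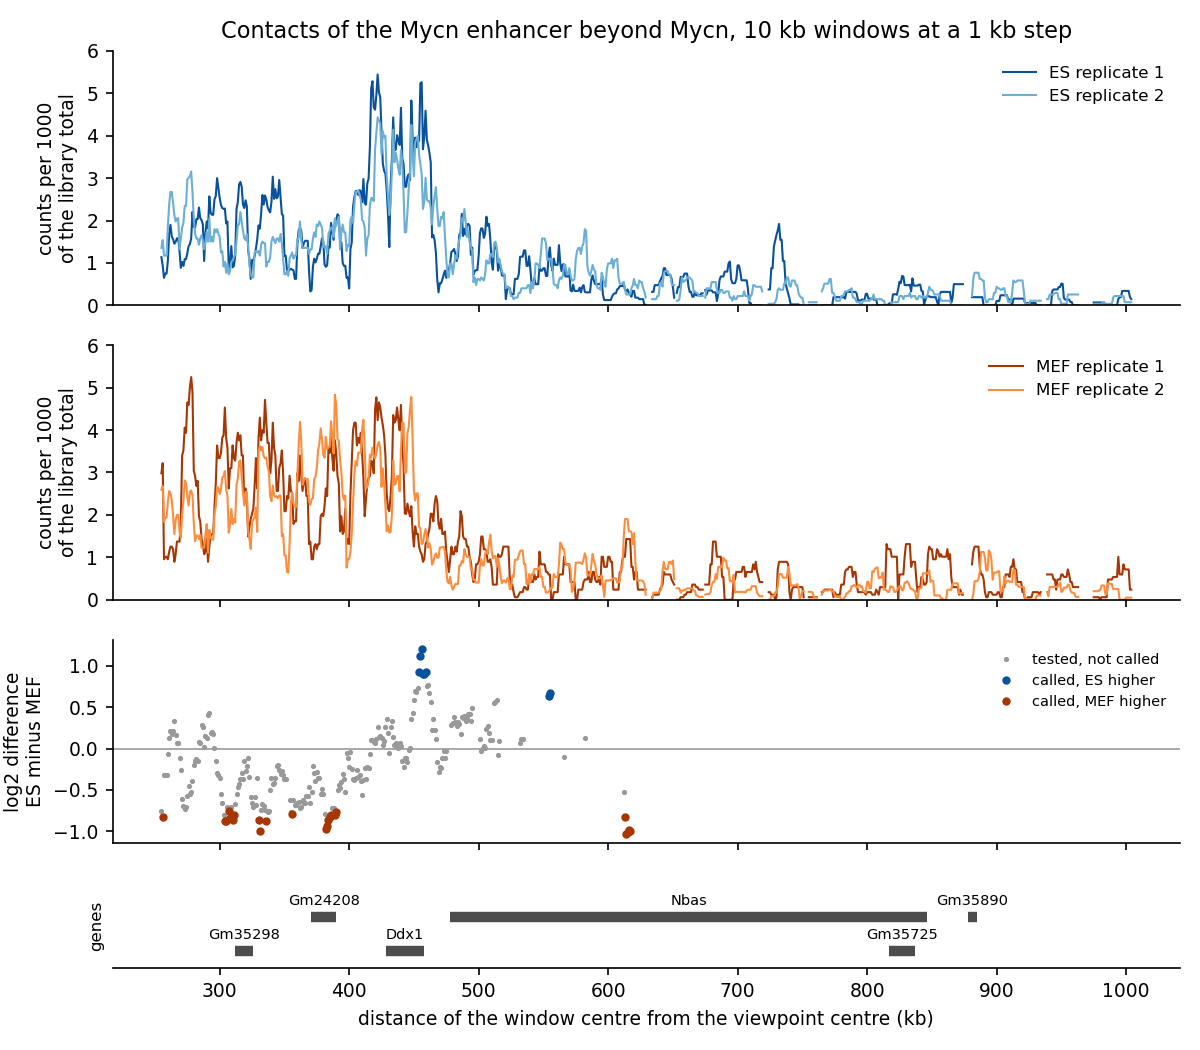
Contact of the Mycn enhancer along the interval, with the distance of each window centre from the viewpoint centre in kb on the x axis. The upper panels plot counts per 1000 of the library total in each ES and each MEF library (gaps are windows not listed), the third panel the log2 difference of the tested windows with called windows in colour, and the lowest the gene spans. Of the 8 ES-higher calls, 6 stand at the start of Ddx1, 458 kb from the viewpoint, and 2 in Nbas. Most MEF-higher calls stand before Ddx1.

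Of the 264 members tested, 31 were called, or 11.7%, against 30.6% of all windows tested from this viewpoint. In 8 of them ES cells were higher (16.4% of all tested windows were called that way) and in 23 MEFs were higher (14.2%). The filter fixed the direction of 9 of these calls, 2 for ES cells and 7 for MEFs, because the windows passed through that group alone, which leaves 6 and 16. After median-centring the split was 18 for ES cells and 4 for MEFs, and after quantile normalization 13 and 4. Without ES replicate 1, 12 windows were called, all for MEFs, and 8 were called without ES replicate 2 or without MEF replicate 1. The median log2 difference was -0.22 over the tested members and -0.15 over all tested windows, with 163 members below 0 and 101 above. Of all 714 listed members, both ES libraries lay above both MEF libraries in 71 (9.94%, against 17.8% of all listed windows) and both MEF libraries above both ES libraries in 190 (26.6%, against 23.7%). Calls are made against 0, and neighbouring windows share most of their reads.

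The directions differed by position. Before Ddx1, 139 of 172 tested windows had a log2 difference below 0 (median -0.37), with 18 calls for MEFs and 0 for ES cells. From Ddx1 on, 68 of 92 tested windows lay above 0 (median 0.19) and held all 8 calls for ES cells. Over all tested windows, 14.2% were called for MEFs and 16.4% for ES cells, with a median log2 difference of -0.15. The 18 calls in 172 windows and the 8 in 92 both lie below those shares. Of the calls whose direction the filter fixed, 2 for MEFs lay before Ddx1, and the other 5 for MEFs and both for ES cells lay in Nbas. Leaving these out, the 6 calls for ES cells lay at the start of Ddx1 and the 16 for MEFs before Ddx1. The 45 tested windows centred in Nbas ended at 13413000, and none centred beyond Nbas passed the filter.

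Between Mycn and Ddx1, MEFs had more contact than ES cells over a row of noncoding genes. The called windows joined into 1 region of 96 kb, from 13090001 to 13186000, with 17 called windows, preceded by a single called window from 13042001 to 13052000 that overlaps no gene. That window held 0.943 and 1.54 in ES cells, against 3.22 and 2.68 for MEFs, and its limma adjusted p of 0.0421 rose past 0.05 when any 1 of the 4 libraries was left out, after median-centring (0.204), after quantile normalization (0.216), in edgeR and with no filter. In the window of smallest p, 13117001 to 13127000, the ES pair held 1.81 and 1.17 counts per 1000 and the MEF pair held 4.29 and 3.62, from 159, 32, 72 and 215 counts. Both MEF libraries lay above both ES libraries, and the MEF mean was 2.66-fold the ES mean (log2 difference -1.002, SE 0.29, limma adjusted p = 0.0128). The call at 13117001 was lost without ES replicate 2 (adjusted p = 0.102), without MEF replicate 1 (0.0605), after median-centring (0.078) and after quantile normalization (0.0863).

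The genes under this region are noncoding: 4 long noncoding RNA genes (Gm35350, Gm35298, Gm38686, Gm24208), a ribosomal protein pseudogene (Rpl21-ps2) and a small nucleolar RNA gene (LOC115485860). The interval overlaps 18 annotated genes in all. The locus of a gene, its span with 10 kb on each side, passed the filter for 7 of the 18, and limma called 6 of these 7, all with MEFs higher (75% of the 24 loci tested were called, 45.8% in that direction). The 6 are the noncoding genes just named, and several share windows. Gm24208, at 13161848 to 13181213, held 1.33 and 1.64 in the ES pair, against 2.37 and 2.96 in the MEF pair. The groups did not overlap, and the MEF mean was 1.79-fold the ES mean (log2 difference -0.56, SE 0.11, limma adjusted p = 0.00831). Gm35298, at 13102643 to 13116735, held 1.98 and 1.30 in ES cells, against 3.29 and 2.53 for MEFs (log2 difference -0.57, limma adjusted p = 0.0218). Rpl21-ps2, at 13149634 to 13150199, had the closest replicates, 1.36 and 1.32 in ES cells, against 2.35 and 2.34 for MEFs (log2 difference -0.51, limma adjusted p = 0.00179). The other 3 loci had log2 differences from -0.62 to -0.48.

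These calls moved with the scaling of the libraries. After median-centring, 4 of the 6 loci were called for MEFs and Ddx1 for ES cells. After quantile normalization 0 of the 6 were called and Ddx1 was, and the differences of Gm38686 and Rpl21-ps2 turned to 0.02 and 0.01. Without ES replicate 1 or ES replicate 2, 2 of the 6 were called.

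At Ddx1 the comparison turned on which part of the gene was read. Over the whole locus, 13219307 to 13249174 with 10 kb on each side, the ES pair held 3.33 and 2.95 counts per 1000 per window and the MEF pair held 2.64 and 2.46. Both ES values were higher, but the difference did not pass at 0.05 (log2 difference 0.22, SE 0.08, limma adjusted p = 0.0538). It passed with the gene alone (0.0329), a flank of 5 kb (0.0387), median-centring (0.000882), quantile normalization (0.0144), edgeR with TMM (0.0179), the replicate block (0.0383) and without the trend (0.0461), which are 7 of 15 alternatives. In the other 8 it did not, with 0.277 with no filter, 0.0534 in edgeR with DESeq2 size factors, 0.0559 with a pseudocount of 0.25, 0.0593 after rescaling without windows near the viewpoint and 0.0949 to 0.435 with 1 library left out.

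The windows that differed lay at the start of Ddx1, with ES cells higher. Adjoining steps along the gene show where. From 13221001 to 13231000, in the part of Ddx1 nearer to Mycn, the ES libraries held 3.65 and 3.37 and the MEF libraries 4.17 and 2.71, with overlapping values. From 13231001 to 13241000 the values overlapped again, at 3.02 and 2.20 in ES cells, against 2.27 and 3.92 for MEFs. From 13241001 to 13251000, which holds the Ddx1 start and the stretch printed above, the ES libraries held 5.24 and 3.34 and the MEF libraries 1.13 and 1.68. The lower ES value was above the higher MEF value there, from 461, 91, 19 and 100 counts. In the next step, 13251001 to 13261000, they held 1.66 and 2.35 against 1.85 and 0.892, and overlapped.

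All 6 called windows of this region, which spans 13240001 to 13255000, hold the whole stretch printed for Ddx1. In all 10 windows that hold it both ES libraries lay above both MEF libraries (17.8% of all listed windows did so). These 10 windows overlap each other and share reads, so they are not 10 separate observations. The window of smallest p, 13242001 to 13252000, held 5.26 and 3.08 in the ES pair, against 1.07 and 1.31 in the MEF pair (log2 difference 1.21, SE 0.30, limma adjusted p = 0.00486). The ES mean there was 3.49-fold the MEF mean, the highest log2 difference of the 264 tested members. In each MEF library the step at the start of Ddx1 was lower than both steps nearer to Mycn.

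Promoters were then compared as the mean of all windows that hold the whole 300 bases of a RefSeq promoter, a test added after the values had been seen. Of the 6 genes of the interval with such a promoter, 5 passed the filter. limma called 4 of them, against 61.5% of the 13 promoters tested. Ddx1 was the 1 with ES cells higher (23.1% of those tested), and in Gm35350, Gm35298 and Gm24208 MEFs were higher (38.5%). The promoters of Gm35350 and Gm35298 lie side by side and share nearly all their windows, so their calls are not separate results. The Ddx1 promoter held 4.13 and 2.74 in the ES pair, against 1.32 and 1.45 in the MEF pair. Its windows include the 6 called above, so it is not separate support for them. The ES libraries differed from each other more than the MEF libraries did, and the ES mean was 2.48-fold the MEF mean (log2 difference 0.88, SE 0.20, limma adjusted p = 0.000722). Without ES replicate 1, the deepest library, the difference was 0.65 and the call was lost (adjusted p = 0.113). Without it the window at 13242001 lost its call too (0.0877).

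The Nbas promoter, 19.953 kb farther, held 1.02 and 0.989 in the ES pair, against 1.10 and 0.490 in the MEF pair. The groups overlapped, with 1 MEF library above and 1 below both ES libraries (log2 difference 0.18, SE 0.36, limma adjusted p = 0.612). The SE is too wide to show that the cell types are alike there. The promoters of Gm35298 and Gm24208 held 1.67 and 1.35, and 1.75 and 1.82, in ES cells, against 3.43 and 2.31, and 2.83 and 3.72, in MEFs. In edgeR a promoter was read from a single window, not from the mean of all that hold it. The call of all 3 noncoding promoters was lost in edgeR, after median-centring or quantile normalization, with no filter, and without ES replicate 1 or ES replicate 2; that of Gm35350 and Gm35298 was also lost without MEF replicate 1.

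**Figure D2:**
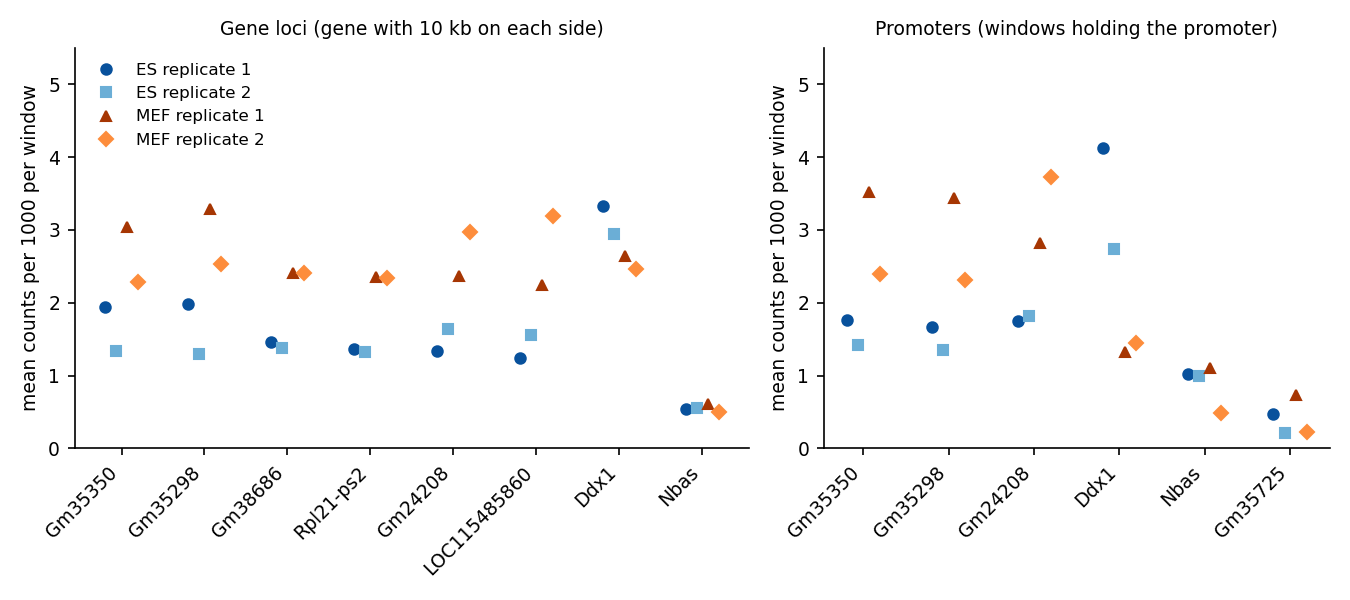
Mean counts per 1000 per window, 1 point per library, for the gene loci that passed the filter with Nbas (left) and for the 6 promoters (right). At the noncoding loci both MEF libraries lie above both ES libraries, and at the Ddx1 promoter the ES libraries lie at 4.13 and 2.74 against 1.32 and 1.45 in MEFs.

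Nbas, which spans 13269101 to 13637380, was low in both cell types and showed no difference beyond the spread as a whole. Over its 383 windows it held 0.541 and 0.555 in the ES pair, against 0.611 and 0.499 in the MEF pair, and the groups overlapped. Its locus did not pass the filter of 1 per 1000. Tested without a filter, the log2 difference was -0.01 (limma adjusted p = 0.98). Cut into 5 stretches of equal length, its contact fell from the first to the last stretch in all 4 libraries, in steps in ES cells, whereas in both MEF libraries the last stretch was above the one before it (0.539 after 0.391, and 0.312 after 0.247), and in MEF replicate 2 the stretch after the first was higher too (0.718 after 0.687). The order of the cell types also changed along the gene. The first stretch, 13269101 to 13342756, held 1.06 and 0.921 in ES cells, against 0.820 and 0.687 for MEFs, with both ES libraries higher. In the 3 stretches between its ends the libraries overlapped. The last, 13563725 to 13637380, held 0.230 and 0.199 in ES cells, against 0.539 and 0.312 for MEFs, with both MEF libraries higher. None of the 5 passed the filter. With no filter the limma adjusted p was 0.433 for the first and 0.421 for the last, and after rescaling without the windows within 50 kb of the viewpoint the first passed the filter and was called for ES cells (0.0418).

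The other 10 gene loci of the interval all lay past the start of Nbas and below the filter. Inside Nbas, Gm35638 held 0.577 and 0.467 in ES cells, against 0.258 and 0.410 for MEFs, and Gm6736 held 0.401 and 0.408, against 0.270 and 0.248, with both ES libraries higher. At the end of Nbas, the long noncoding RNA gene Gm35725 held 0.264 and 0.170, against 0.677 and 0.382, and beyond it Gm35890 held 0.210 and 0.266, against 0.481 and 0.537, with both MEF libraries higher. The same order held at Gm4929 and Gm38668, while the libraries overlapped at Gm24142, Gm22170, Gm7126 and Gm9194, the last read partly from windows past the interval.

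The windows called inside Nbas all passed the filter through 1 group alone, so their directions and folds are given as a description. From 13340001 to 13351000, ES cells were higher in 2 called windows; at 13341001 the ES libraries held 1.36 and 1.10 and the MEF libraries 0.596 and 0.236, from 120, 30, 10 and 14 counts. Its call was lost in 6 alternatives, among them no filter (limma adjusted p = 0.278) and leaving out MEF replicate 1 (0.075) or MEF replicate 2 (0.332), and without either ES library it was not tested. From 13399001 to 13413000, MEFs were higher in 5 called windows. At 13403001 the ES libraries held 0.261 and 0.257 and the MEF libraries 1.43 and 1.62, from 23, 7, 24 and 96 counts, a 5.88-fold difference of the means. It was not tested without either MEF library or with the filter on the mean of the 4 libraries. With no filter on any window its limma adjusted p was 0.0165.

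Averaged in 15 blocks of 50 kb, counted from the first member window, the same order appeared with less weight on single windows. A block was tested where at least 2 libraries averaged 0.5, which 7 blocks did, all before 13391001. limma called 3 of the 7, against 67.7% of the 31 blocks tested, 2 for MEFs (38.7%) and 1 for ES cells (29%). Without MEF replicate 2, 0 of the 7 were called. The block from 13091001 held 1.90 and 1.27 in the ES pair, against 3.14 and 2.30 in the MEF pair (limma adjusted p = 0.000202). Its call was also lost without MEF replicate 1 (log2 difference -0.36). The next, from 13141001, held 1.30 and 1.61 against 2.34 and 2.94 (log2 difference -0.57, SE 0.13, limma adjusted p = 9.3e-05). Neither was called after median-centring (log2 differences -0.12 and -0.16) or quantile normalization (-0.07 and -0.02), and after these 4 and 3 blocks were called, all for ES cells.

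The block from 13191001, over most of Ddx1, held 3.53 and 3.02 in ES cells, against 3.14 and 3.10 for MEFs and overlapped (limma adjusted p = 0.623). The block from 13241001, with both the Ddx1 and the Nbas start, held 1.77 and 1.63 in ES cells, against 1.35 and 0.887 for MEFs. Both ES libraries were higher (log2 difference 0.36, SE 0.14, limma adjusted p = 0.023), a call lost without ES replicate 1 or MEF replicate 2.

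The 8 blocks from 13391001 on did not pass the filter. In the last 4, which hold the end of Nbas and a stretch of pseudogenes and noncoding genes beyond it, both MEF libraries lay above both ES libraries (39.7% of the 116 blocks with enough windows did so). The block from 13641001, with the noncoding gene Gm35890, held 0.217 and 0.255 in ES cells, against 0.553 and 0.442 for MEFs, 2.11-fold by the means. In the last block, from 13741001, the values were 0.102 and 0.136 against 0.391 and 0.184. There 3 counts are worth 0.0341, 0.110, 0.179 and 0.0505 per 1000 in the same order of libraries, so a window of MEF replicate 1 rests on a few counts. With no filter, limma called 1 of these 4 blocks, from 13591001 (log2 difference -0.33, adjusted p = 0.0125). After rescaling without the windows within 50 kb of the viewpoint, the block from 13641001 passed the filter through the MEF pair alone. The filter thus fixed the direction of its call for MEFs (log2 difference -0.35, limma adjusted p = 0.0128). With no filter its limma adjusted p was 0.0549.

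**Figure D3:**
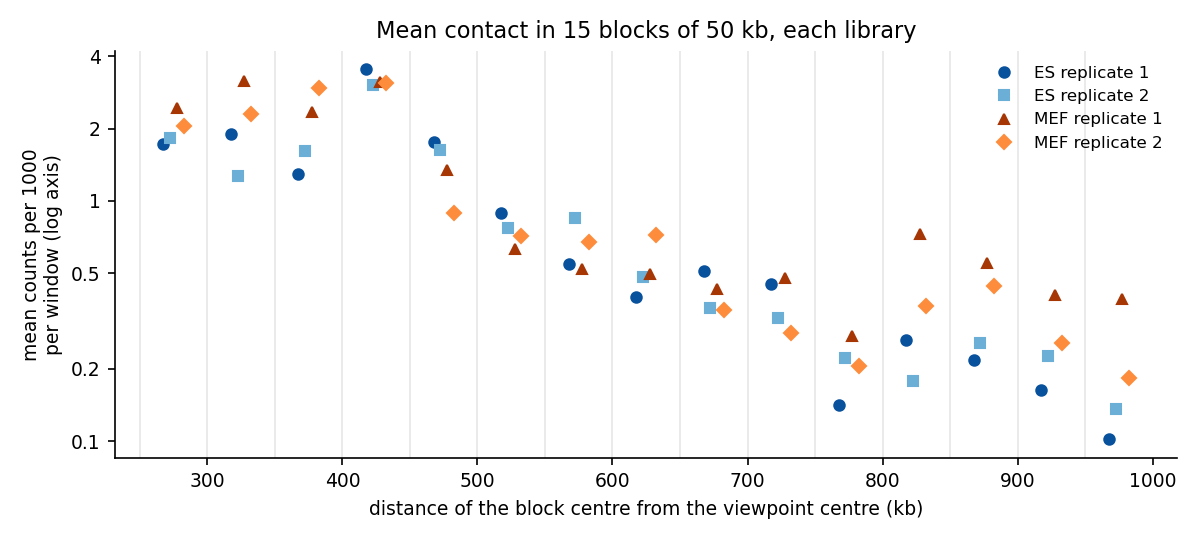
Mean counts per 1000 per window in 15 blocks of 50 kb, on a log axis, against the distance of the block centre from the viewpoint centre in kb, with 1 point per library. MEF libraries lie higher before Ddx1, in the block centred at 625 kb and in the last 4 blocks. ES libraries lie higher in the block centred at 475 kb, at 1.77 and 1.63 against 1.35 and 0.887. They also lie higher in the block centred at 525 kb, at 0.889 and 0.771 against 0.628 and 0.714, which was not called.

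The 36 positions with no listed window all lay past the start of Nbas, the first at 13416001. Listed windows have counts in at least 3 libraries, and of the 714 members 588 had counts in all 4 and 126 in 3. ES replicate 1, the deepest library, had no counts in 71 member windows, against 17 in ES replicate 2, 20 in MEF replicate 1 and 18 in MEF replicate 2.

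As a share of the library, the whole interval took 6.93% and 6.56% of the counts in the ES pair, against 8.85% and 7.79% in the MEF pair. Both MEF shares were higher (exact permutation test, two-sided, p = 0.333, the smallest that 2 against 2 libraries can give). The share depends on how much of a library lies at the viewpoint and at Mycn. Shares within the interval do not, and they differed too. The stretch before Ddx1 held 48.5% and 47.0% of the interval counts in ES cells, against 56.7% and 58.2% for MEFs. Ddx1 itself held 15.7% and 14.3% in ES cells, against 8.78% and 10.8% for MEFs. The gap between Ddx1 and Nbas held 4.76% and 6.12% against 3.83% and 2.74%, Nbas 27.7% and 28.0% against 22.8% and 22.9%, and the stretch beyond Nbas 3.28% and 4.55% against 7.90% and 5.43%. In all 5 stretches the groups did not overlap, each with the smallest exact permutation p of 0.333. Since the shares within the interval add up, they are not independent of each other. As a percent of the library total, the groups overlapped in Nbas alone, at 1.90 and 1.82 in ES cells, against 1.93 and 1.74 for MEFs. The higher ES share at Nbas is thus a share of the interval counts only.

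The other side of the viewpoint was compared at the same distances, from 11782001 to 12541000, where 689 windows were listed. Within a library, the log2 ratio of the interval beyond Mycn to that mirror interval was 0.23 in ES replicate 1 and 0.21 in ES replicate 2, and -0.20 and -0.23 in the MEF pair. Within each ES library the Ddx1 and Nbas side held more counts than the other side, and within each MEF library fewer, although the share of the library was higher in MEFs on both sides. The ratios differed by 0.44 between the groups, with SDs of 0.01 and 0.02 (n = 2 each; exact permutation p = 0.333, the smallest possible). This ratio does not depend on the scaling of the libraries.

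**Figure D4:**
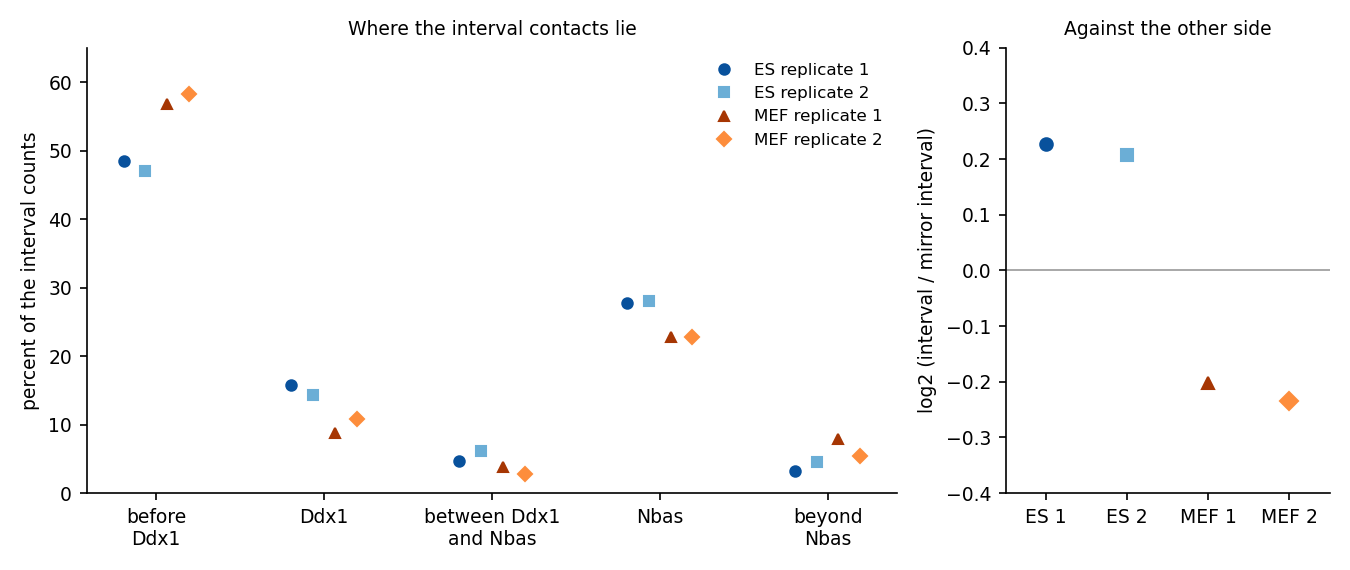
Left: percent of each library's interval counts in 5 stretches; right: log2 ratio of the interval to the interval at the same distances on the other side of the viewpoint, 1 point per library. ES libraries hold a larger part of their interval counts at Ddx1 and Nbas and MEF libraries before Ddx1. The ratios are 0.23 and 0.21 in ES cells, against -0.20 and -0.23 for MEFs.

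Over 72 windows of the interval that do not overlap, Pearson's r of log2 values was 0.84 between the ES replicates, 0.83 between the MEF replicates and 0.84 between the ES and MEF means. Over the 23 of these windows before Nbas, r was 0.59 and 0.62 between replicates and 0.28 between the ES and MEF means. These are descriptions only. All points share their libraries and the fall with distance, and single libraries carry more counting error than means.

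Of 21 neighbour gene names around the viewpoint, 18 genes were found in the gene table and had windows, and 6 passed the filter. limma called 3 of these for ES cells and 2 for MEFs, against 75% of all tested loci called, 29.2% for ES cells and 45.8% for MEFs, and Ddx1 was the 1 not called. Nbas, as given above, did not pass the filter.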

How the data were processed

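Only the Mycn enhancer table was analysed, with 4 libraries grouped by their titles. Per the file headers its values are CPM, in 10 kb windows at a 1 kb step. All deposited values were whole multiples of 1 step per library (100% within 0.01 count), and 1000 divided by the step was a whole number, so they were read as counts per 1000 of a library total. Bowtie 1.0.0, edgeR and mm10 are listed, with no role, in the submitters' processing notes. Duplicate removal and the choice of windows are not given in the sources used here.

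Tests used limma 3.58.1 (lmFit, eBayes with trend) in R 4.3.3 on log2(value + 1), over every window, 50 kb block, gene locus or promoter of the table that passed the filter. The recovered counts were tested with edgeR 4.0.16 (TMM, or size factors from DESeq2 1.42.0) as an alternative. For blocks, loci and promoters, edgeR used counts summed over windows that do not overlap, which left a single window per promoter. Called windows of 1 direction formed a region where gaps were at most 20 kb, and all regions, all genes of the interval and the 10 highest windows were named by rule. The Nbas stretches had no flank. The members and lists were chosen with earlier results of these data known, and the promoter test was added later. Same-numbered ES and MEF libraries did not deviate together (r = 0.04 over 1107 windows), so they were not paired. Replicates of each group differed by more than sampling noise and were kept apart. Figures used matplotlib 3.10.9.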

Additional observations from a re-analysis of the deposited data

How the results depend on the processing

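The 31 called windows (8 with ES cells higher, 23 with MEFs higher) became 11 (4 and 7) with no filter, 17 (13 and 4) after quantile normalization and 8 (2 and 6) among windows that do not overlap. They split as 18 and 4 after median-centring and as 14 and 11 in edgeR, under both TMM and DESeq2 size factors. Same-numbered libraries were not paired, and the replicate block gave 47 calls, 13 of them with ES cells higher. Leaving out 1 library in turn gave 8 to 28 calls, with 0 to 12 for ES cells and 3 to 16 for MEFs. The 3 called blocks became 6 with blocks of 25 kb and 0 to 3 with 1 library left out. Among the loci, 6 calls became 1 after quantile normalization, that of Ddx1 for ES cells with 0 for MEFs, and 2 to 6 with 1 library left out. The 0 called Nbas stretches became 1 after rescaling. The 4 called promoters became 1 with no filter, after median-centring, after quantile normalization and in edgeR with either scaling, and 0 to 4 with 1 library left out. The share difference of -1.58 percentage points became -3.80 over listed windows beyond 50 kb of the viewpoint, and the mirror difference of 0.44 became 0.47 over 10 offsets.

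Directions reversed at the block from 13041001 after median-centring (0.19) and quantile normalization (0.28), and at the block from 13191001 in edgeR with TMM (-0.0108) and without ES replicate 1 (-0.0336, and 0.138 without ES replicate 2). They also reversed at the block from 13341001 without ES replicate 2 (-0.0453, and 0.215 without ES replicate 1), at the loci Gm38686 (0.0206) and Rpl21-ps2 (0.0105) after quantile normalization, and at the Nbas promoter in edgeR with DESeq2 size factors (-0.0325) and without MEF replicate 2 (-0.0651, with 0.195 without ES replicate 2). The cause was not tested. The Ddx1 promoter lost its call only without ES replicate 1 among its 13 alternatives. Those alternatives rerun a test added after the values had been seen, on 10 windows of which 6 were already called, so they are not separate support. The planned test of the Ddx1 locus did not pass in the main setting (limma adjusted p = 0.0538). Toward the far end a window of MEF replicate 1 holds a few counts, so its values there carry a large counting error.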
